A study of Danio rerio with 58 samples.

Results

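The collagens, laminins and matrix assembly genes were the rows of the count table whose symbol names a collagen chain, a laminin chain, a nidogen, perlecan, a fibronectin, sparc, ccdc80, or an enzyme or chaperone of collagen assembly. The rule used names and no measured value, and it found 88 of the 35117 rows, with 85 distinct symbols. Of these, 86 name a matrix protein or a protein of matrix assembly, and 2 (col4a3bpa and col4a3bpb) carry a collagen-like symbol for another protein, a ceramide transfer protein. In the 58 cells, 23 members had no read, 12 had 1 to 9 reads and 53 had 10 or more.

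The cells came from the dorsal aorta of zebrafish embryos, all carrying Tg(flk1:eGFP);Tg(flk1:NLS-Eos), in which the flk1 promoter drives a green reporter and a nuclear photoconvertible protein. Red Eos-positive cells of the aortic roof or floor were picked one by one after photoconversion, and each gave 1 Smart-seq2 library, in which polyadenylated RNA is captured with oligo-dT. At 21 hours post fertilisation (hpf) there were 18 cells of the roof and 18 of the floor, and at 28 hpf there were 10 of the roof and 12 of the floor. Neither the embryos nor their number are named for any cell, so each group was treated as 1 sample. The values below are levels and ratios with intervals for the counting of reads only, and no test between groups was possible. At 28 hpf the titles number roof and floor cells in separate series, and the titles of 21 hpf use another form. What these title parts stand for is not given. Region at 28 hpf, and stage in both regions, cannot be told apart from them.

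A blood vessel lies on a basement membrane, a thin sheet built from networks of laminin and type IV collagen that nidogens and perlecan link together. Endothelial cells secrete much of this sheet, whose alpha4 and alpha5 laminins are typical of vessels. Collagen chains are hydroxylated and folded in the endoplasmic reticulum, by prolyl and lysyl hydroxylases and the collagen chaperone Hsp47, before the cell can export them.

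The libraries held 129849 to 8254178 counts. To sum cells at an equal depth, each was reduced at random to 200000 reads (thinned), and the shallowest, roof cell 9 of 21 hpf, stayed out of the summed levels. The ranges over cells below include that cell. It gave the highest summed member, serpinh1b and p4hb levels and the lowest nid1b level in the roof of 21 hpf. Median depths were 1744157 (roof) and 1448099 counts (floor) at 21 hpf and 4242151 and 5043748 at 28 hpf. Numbers of cells with 5 or more reads come from unthinned reads, which favours the deeper cells of 28 hpf, and the numbers after thinning are given beside comparisons of the stages. Levels are given in CPM, a gene's counts scaled to the same library total in every cell or group. The labels call every cell endothelial, and the markers did not bear this out for most floor cells. The 21 pan-endothelial genes had median shares of counts of 2.41% (roof) and 0.238% (floor) at 21 hpf. Those of 28 hpf were 2.23% (roof) and 0.117% (floor). In the floor at 28 hpf, 12 of these 21 genes had no thinned read, among them cdh5, tie1 and flt1, and she, cldn5b and kdr had no read at all. Others kept reads there: fli1a at 727.9 CPM (1350 in the roof), kdrl at 284.6 CPM (6990) and sox18 at 101.2 CPM (2344). The gene tal1 was higher in the floor than in the roof at 28 hpf, 403.8 against 101.5 CPM. For the 21 erythroid genes the medians were 0.00793% (roof) and 0.485% (floor) at 21 hpf, where the highest floor cell reached 9.12%, and 0.0116% and 0.207% at 28 hpf. For the 12 myeloid genes they were 0.0135% and 0.116% at 21 hpf and 0.0204% and 0.201% at 28 hpf. These genes did not all go the same way. In roof and floor of 21 hpf, cebpa stood at 173.5 and 568.6 CPM, cebpb at 23.8 and 381.9 CPM and mpx at 0 and 452.8 CPM. However, lcp1 (64.1 and 21.9 CPM) and nccrp1 (51.8 and 16.4 CPM) were higher in the roof. Reads of mpeg1.1, csf1ra and marco were absent from all 4 groups. Floor and roof are therefore compared below as the labelled groups, and the part of the marker differences in each result was not tested.

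The summed level of the matrix genes was lower in the floor than in the roof at both stages, and the floor of 28 hpf had the lowest sum of the 4 groups. Single members went both ways at 21 hpf, when 20 of 40 measured were lower and 12 higher in the floor. Of all measured genes, 25.5% were lower and 32.7% higher there. The members higher in the floor thus made up a share close to this background, and those lower made up a larger share. The summed members reached 3552 CPM in the roof of 21 hpf (95% counting interval 3489 to 3616), with cells at 1127 (lowest), 3211 (median) and 7678 CPM (highest). In the floor of 21 hpf they reached 1651 CPM (1609 to 1693), with cells at 167, 798 and 6007 CPM, so the cells of the 2 groups overlapped. At 28 hpf the roof reached 4412 CPM (4320 to 4505; cells at 2193, 4538 and 6819 CPM) and the floor 311.7 CPM (289.7 to 334.8; cells at 61.8, 248 and 785 CPM). The highest floor cell of 28 hpf lay below the lowest roof cell. The floor was 2.15-fold lower than the roof at 21 hpf (2.09 to 2.22) and 14.2-fold lower at 28 hpf. The number of members with 5 or more thinned reads in a cell followed the same order, with medians of 13 and 6.5 at 21 hpf and 16.5 and 2 at 28 hpf.

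**Figure D1:**
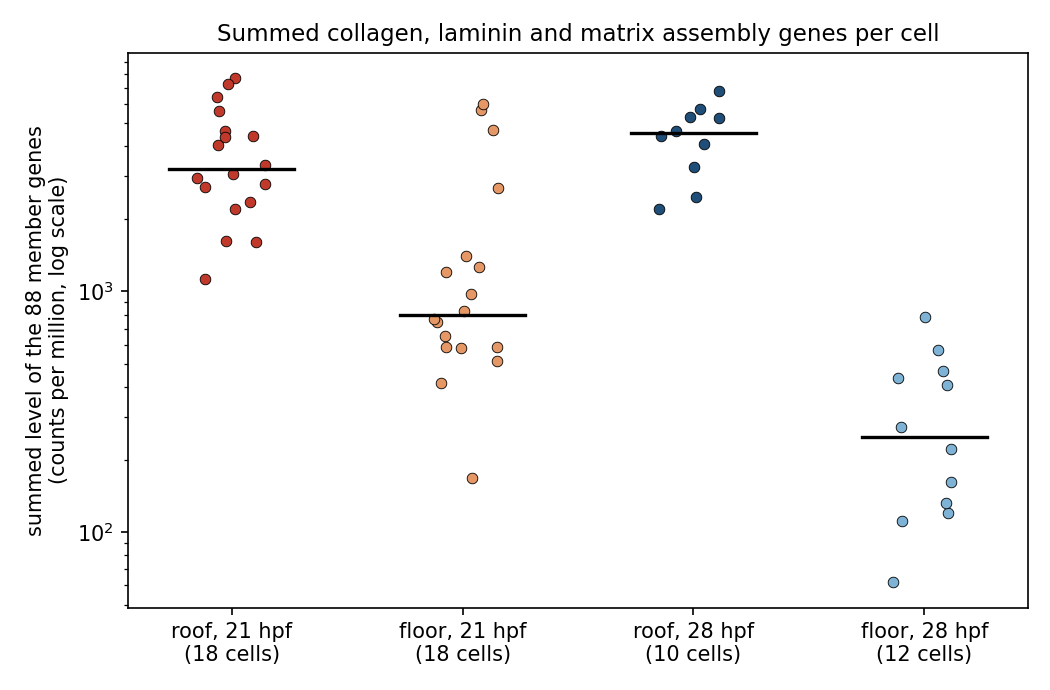
Summed level of the 88 member genes in each cell (CPM, log scale) in the 4 groups, with 1 point per cell and a line at the median. The roof cells of 28 hpf sit between 2193 and 6819 CPM, all above the floor cells of 28 hpf (61.8 to 785 CPM).

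Counted gene by gene, a member counted as measured in a comparison with at least 10 thinned reads summed over its groups, and as called when it differed at least 2-fold. At 21 hpf, the 12 members higher and 20 lower in the floor left 8 of the 40 within 2-fold, with a median log2 ratio of -1.05 against 0.15 over all measured genes, of which 32.7% were higher and 25.5% lower. Thinned with another seed, the members' median was -0.67. Of the fibril-associated (FACIT) collagens, 3 of 3 measured were higher in the floor at 21 hpf, with 187 thinned reads in the floor and 6 in the roof, a ratio of 29.4 (13.3 to 81.2; 83.1 without roof cell 1, which leaves 2 roof reads). For 2 of the 3, col14a1a (70.5 CPM) and col19a1 (141 CPM), floor cell 18 held all floor reads of that stage, so that col12a1a alone stayed higher without that cell. At 28 hpf, 3 of 33 measured members were higher and 27 lower in the floor (median -3.38, against 0.06 over all genes, with 34.9% higher and 35.6% lower). In the roof, 18 of 37 measured members were higher and 11 lower at 28 hpf than at 21 hpf (median 0.54, against -0.34 over all genes, with 22.5% higher and 35.0% lower). In the floor, 1 of 33 was higher and 28 were lower at 28 hpf (median -2.38, against -0.55 over all genes, with 16.7% higher and 42.0% lower). Against those shares of all genes, 81.8% of the measured members were lower in the floor than in the roof at 28 hpf and 84.8% were lower in the floor at 28 hpf than at 21 hpf, while the 12 members higher in the floor at 21 hpf made up a share close to the background. The 3 members higher in the floor than in the roof at 28 hpf were fn1b, p4ha1b and col28a1a, with 14 or 15 thinned reads each and all reads of the latter pair in 1 cell each. Each group enters 2 of the 4 comparisons. The counts in the floor over time rest in part on 4 floor cells of 21 hpf, described next. A member passes the 10-read minimum through whichever group is high, so these counts describe the measured members and not all 88.

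Within the floor of 21 hpf, 4 cells stood apart. Floor cells 3, 6, 16 and 18 had pan-endothelial shares of 2.08%, 3.80%, 2.21% and 0.961%, at or above the lowest roof cell of that stage (0.667%), and summed member levels of 5687, 2697, 6007 and 4694 CPM. Floor cell 6, with the highest share, had no read of serpinh1b, sparc, col4a1, col4a2 or lamc1. The 14 floor cells outside these 4 lay between 167 and 1402 CPM, with a median of 697. Without the 4 cells the floor summed to 746 CPM, the log2 ratio of floor to roof went from -1.11 to -2.25, and 7 of 36 measured members were higher and 28 lower. In the floor over time, the summed log2 ratio of 28 to 21 hpf went from -2.40 to -1.26 without them. There 4 of 21 measured members were higher and 15 lower, and lamb1b (1.44), col4a1 (2.54) and col4a2 (2.54) turned to higher at 28 hpf. The shares of all genes given above include the 4 cells, so these counts have no matching background. Without the 8 floor cells with over 1% erythroid counts the log2 ratio was -0.55 instead. Across the 18 floor cells of 21 hpf, the pan-endothelial share and the log2 summed member level had a Pearson r of 0.70 and a Spearman rho of 0.55, and across the 18 roof cells of that stage -0.37 and -0.19. Both measures are shares of the same library.

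**Figure D2:**
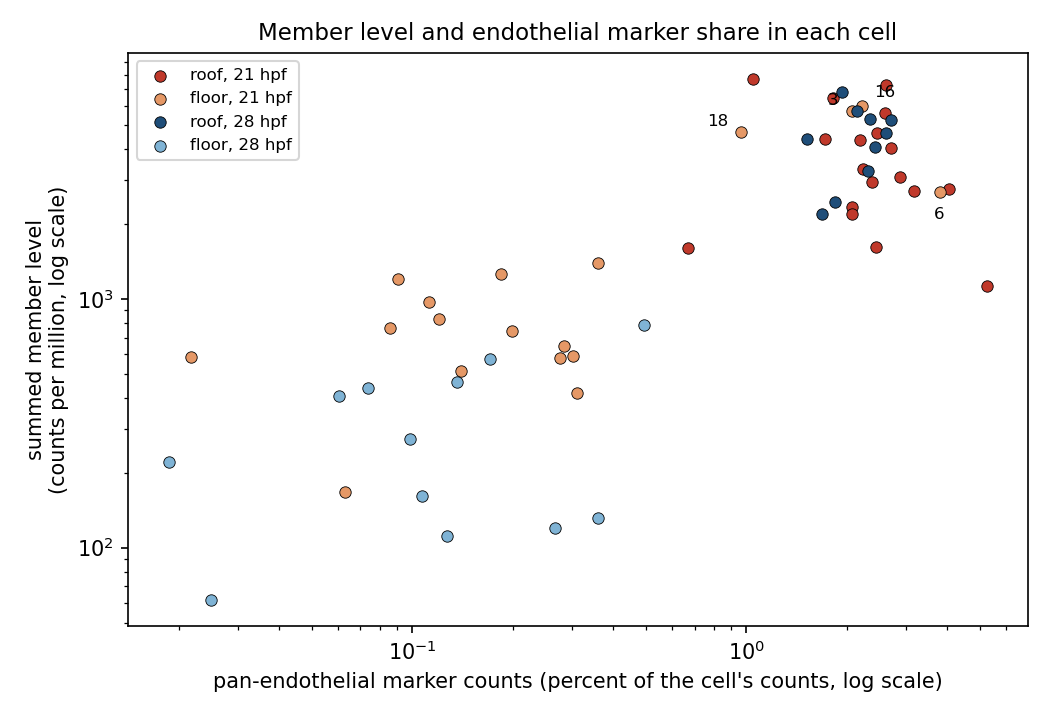
Pan-endothelial marker counts as a percent of each cell's counts (log scale) against the summed member level (CPM, log scale), with 1 point per cell and the floor cells 3, 6, 16 and 18 of 21 hpf numbered. These 4 floor cells lie among the roof cells, and the other floor cells lie below a share of 0.667%.

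The make-up of the member reads also differed between the groups. Gene lengths were not used, so the shares of a class can be compared between groups, and do not give amounts of transcript. In the roof, the hydroxylases and the chaperone gave 56.1% of the member reads at 21 hpf and 27.7% at 28 hpf, while laminin chains went from 13.7% to 34.8% and type IV collagens from 2.74% to 8.65%. As levels, the laminin chains together were 487 CPM at 21 hpf and 1535 CPM at 28 hpf, 3.15-fold higher (2.97 to 3.35). The type IV collagens were 97.3 and 381.5 CPM, 3.92-fold higher (3.44 to 4.47), and the hydroxylases and chaperone 1992 and 1222 CPM, 1.63-fold lower (1.56 to 1.71). No single cell moved these 3 ratios by over 1.5 times. In the floor of 28 hpf, 50.7% of the few member reads came from the matricellular class, and all of these from sparc.

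**Figure D3:**
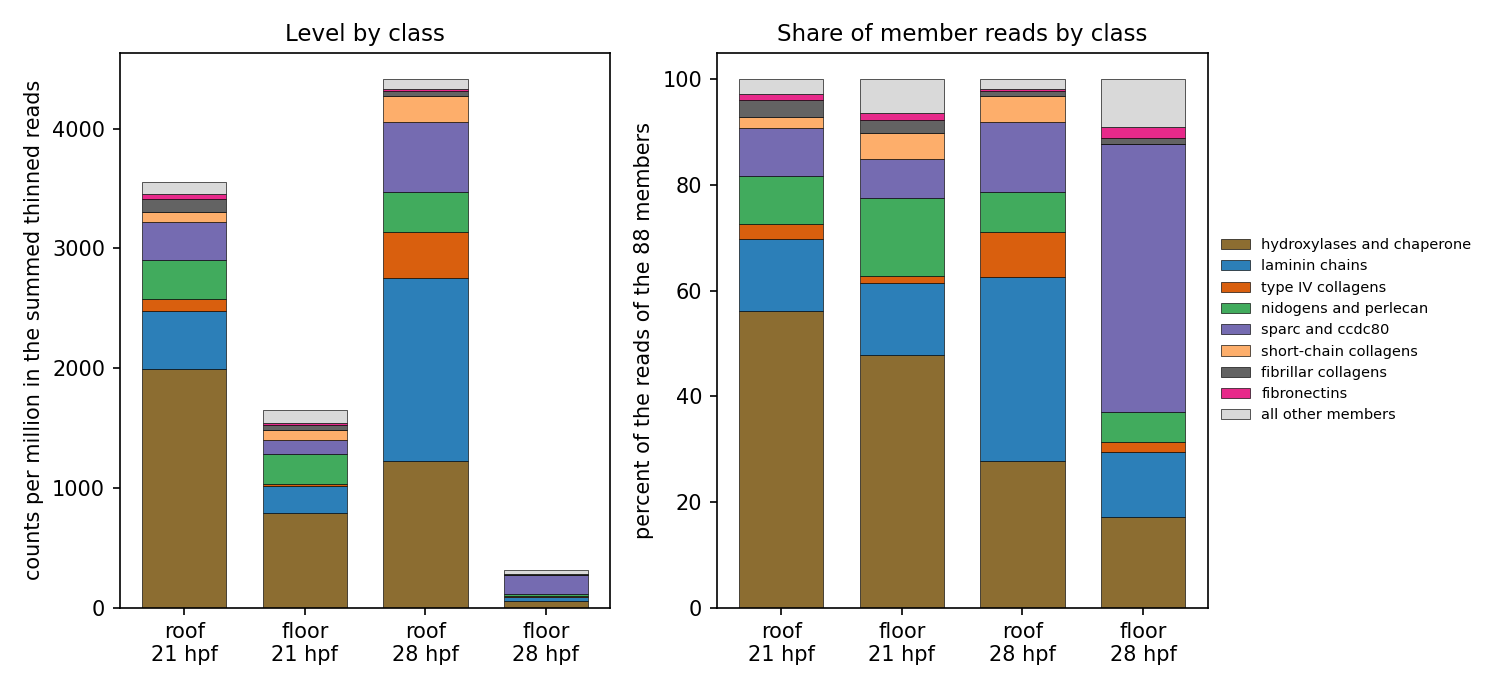
Summed thinned reads of the member classes in the 4 groups, as CPM (left, bars from 0) and as percent of all member reads (right). The laminin chains are the widest band in the roof at 28 hpf (34.8%), the hydroxylases and chaperone at 21 hpf (56.1% in the roof).

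**Figure D4:**
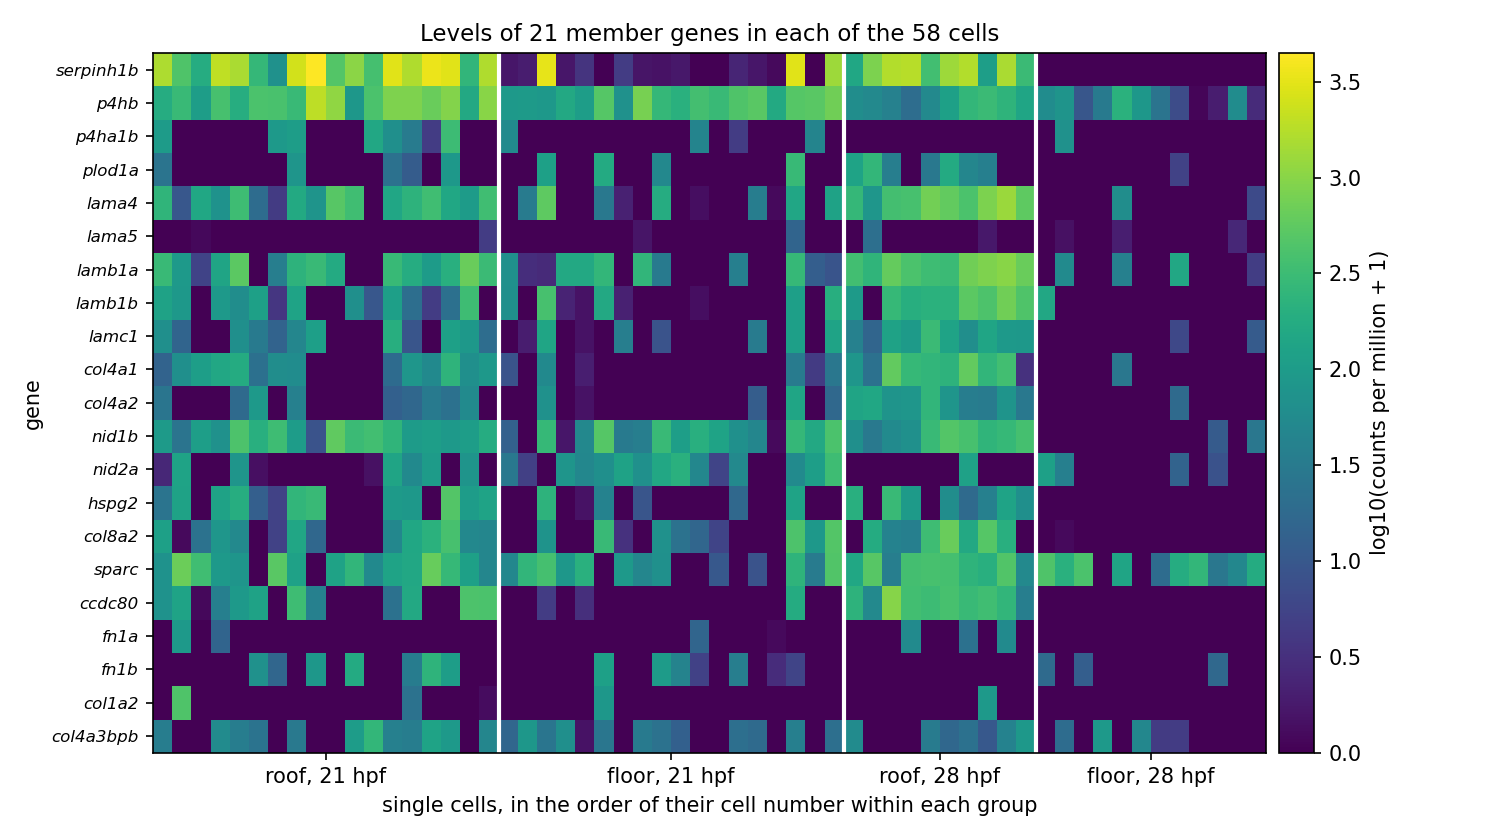
Level of the named members and partner chains in each of the 58 cells, as log10 of CPM plus 1, with cells in columns by group. The partner chains col1a1a, with no read, and nid1a, with reads in floor cell 10 of 21 hpf alone, are not shown. The genes serpinh1b, lama4, lamb1a, col4a1 and ccdc80 have reads in all 10 roof cells of 28 hpf, and p4hb and sparc are the genes with reads in most floor cells of 28 hpf.

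The collagen chaperone gene serpinh1b was lower in the floor at both stages. The gene serpinh1b (ENSDARG00000019949) encodes Hsp47, which binds procollagen in the endoplasmic reticulum and is needed for its folding. It stood at 69.0, 1557 and 4467 CPM (lowest, median and highest cell) in the roof of 21 hpf, with 5 or more reads in 18 of 18 cells. For the floor of 21 hpf the same figures were 0, 0.691 and 3254 CPM, and 4 of 18 cells had 5 or more reads. Floor cells 3, 16 and 18 held 3254, 3014 and 1314 CPM, and the next floor cell was under 4 CPM. The 2 groups thus overlapped only through those 3 cells, and floor cell 6 had no read. The summed level was 1382 CPM in the roof and 424 CPM in the floor, 3.26-fold lower (3.08 to 3.46), 5.52-fold lower without floor cell 3 and 5.05-fold lower without floor cell 16, and no thinned read was left without the 4 floor cells named above. At 28 hpf the roof cells held 109.6, 1089 and 1797 CPM, and none of the 12 floor cells held a read. For the counting of these cells alone, taken as independent, that allows a share of up to 25% of cells with a read. Their embryos are not named, so whether they are independent is not known. Floor serpinh1b was at least 794-fold lower than in the roof, taking 3 reads over the group in place of 0. In the roof it differed 1.39-fold between the stages (lower at 28 hpf, 1.32 to 1.47).

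The prolyl 4-hydroxylase that stabilises the collagen triple helix is a tetramer of catalytic alpha subunits and the beta subunit p4hb, a protein disulfide isomerase with other clients. The beta subunit p4hb (ENSDARG00000105116) was the member found most widely, with 5 or more reads in 18 of 18 cells of both groups of 21 hpf, in 10 of 10 roof and in 11 of 12 floor cells of 28 hpf. After thinning these were 17 of 17, 18 of 18, 9 of 10 and 6 of 12 cells. Its cells stood at 85.4, 402 and 1918 CPM in the roof and 68.3, 284 and 804 CPM in the floor of 21 hpf, and at 19.01, 88.9 and 308 CPM in the roof and 0.122, 27.6 and 216 CPM in the floor of 28 hpf. The roof and floor cells overlapped at both stages, and at 21 hpf the summed levels differed 1.58-fold (lower in the floor, 1.47 to 1.71). In the roof, p4hb was 4.19-fold lower at 28 hpf than at 21 hpf (3.66 to 4.82), the opposite direction to the laminin and type IV genes. In the floor it was 6.73-fold lower at 28 hpf (5.54 to 8.24), and 10.6-fold lower without floor cell 5. At 28 hpf the floor was 2.54-fold lower than the roof (2.02 to 3.21), 4.01-fold lower without floor cell 5. The 5 roof cells of 28 hpf that share a number in their titles (cells 6 to 10) held 118 to 308 CPM and the other 5 held 19.01 to 59.8 CPM. Without those 5 cells the floor to roof log2 ratio went from -1.34 to 0.12, and the 28 to 21 hpf log2 ratio of the roof from -2.07 to -3.53. What that number stands for is not given.

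The catalytic partners were low and patchy. The alpha subunit p4ha1b had 5 or more reads in 7 of 18 roof cells of 21 hpf (45.6 CPM over the group, cells at 0, 0 and 314 CPM) and no read in the 10 roof cells of 28 hpf, at least 30.4-fold lower. The other alpha subunits, p4ha1a and p4ha2, stood at 9.71 and 43.8 CPM in the roof of 21 hpf (4 and 9 of 18 cells; 2 and 8 of 17 after thinning) and at 13.5 and 23.5 CPM in the roof of 28 hpf (5 of 10 cells each; 3 and 4 after thinning). In the floor of 21 hpf p4ha2 lay in cell 6 alone (51.1 CPM, summed level 11.3-fold lower than in the roof, at least 49.7-fold without that cell). At least 1 of the 3 alpha subunits reached 5 reads in 13 of 18 roof and 6 of 18 floor cells at 21 hpf, and in 7 of 10 roof and 2 of 12 floor cells at 28 hpf. After thinning these were 12 of 17, 4 of 18, 5 of 10 and 1 of 12. The lysyl hydroxylase plod1a, whose product prepares collagen for crosslinking, stood at 0, 0 and 86.1 CPM in the roof of 21 hpf and at 0, 36.2 and 261 CPM in the roof of 28 hpf. Its summed level was 4.73-fold higher in the roof at 28 hpf (3.35 to 6.78). At 21 hpf plod1a was 2.38-fold higher in the floor (1.68 to 3.43; cells at 0, 0 and 289 CPM), and still higher when floor cell 3 (1.87-fold) or 16 (1.35-fold) was left out. Leaving out all 4 floor cells of high endothelial share gave -2.07 on the log2 scale. In the floor of 28 hpf it had reads in floor cell 8 alone, at 4.18 CPM, and 1 thinned read.

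Laminins are heterotrimers of an alpha, a beta and a gamma chain. Of the 13 laminin rows, 6 were measured in the roof over time, and 5 of these were higher at 28 hpf and 1 lower. Over all measured genes, 22.5% were higher and 35.0% lower. The alpha4 chain lama4 (ENSDARG00000020785) stood at 0, 147 and 496 CPM in the roof of 21 hpf and at 81.7, 478 and 1258 CPM in the roof of 28 hpf, 2.92-fold higher (2.64 to 3.22). The beta1 chain lamb1a (ENSDARG00000101209) went from 0, 176 and 646 CPM to 246, 512 and 1010 CPM, 2.96-fold higher (2.68 to 3.27). Cells of the 2 stages overlapped for both genes, although no roof cell of 28 hpf fell below the median roof cell of 21 hpf for lamb1a. Its paralogue lamb1b (ENSDARG00000045524) stood at 0, 40.5 and 326 CPM and then at 0, 246 and 720 CPM, 4.52-fold higher (3.89 to 5.26). The gamma1 chain lamc1 (ENSDARG00000036279) stood at 0, 16.8 and 191 CPM and then at 14.7, 94.3 and 307.5 CPM, 2.98-fold higher (2.38 to 3.74). Leaving out any 1 cell moved none of these 4 ratios by over 1.5 times. Without roof cells 6 to 10 of 28 hpf they were 1.98-fold for lama4, 2.05-fold for lamb1a, 2.15-fold for lamb1b and 3.35-fold for lamc1. How the counting treated reads shared by lamb1a and lamb1b is not given, so the split between these paralogues is uncertain.

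All chains of an alpha4, beta1, gamma1 laminin were found together in single cells of the roof. At least 5 reads each of lama4, of lamc1 and of lamb1a or lamb1b stood in 12 of 18 roof cells at 21 hpf and in 10 of 10 at 28 hpf, against 4 of 18 and 1 of 12 floor cells. After thinning to equal depth, the chains were found together in 6 of 17 and 9 of 10 roof cells and in 3 of 18 and 0 of 12 floor cells. Across the 10 roof cells of 28 hpf the log levels of lama4 and lamc1 had a Pearson r of 0.81 and a Spearman rho of 0.65, and across the 18 roof cells of 21 hpf 0.08 and -0.13. For lamb1a and lamc1 the order of the stages was the reverse, with 0.29 and 0.09 at 28 hpf and 0.54 and 0.69 at 21 hpf. Within a group the cells share a protocol and differ in depth. Other alpha chains were scarce: lama5, typical of mature vessels, had at most 5 thinned reads in a group, with 20.4 CPM in roof cell 2 of 28 hpf as its highest cell.

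Summed over the laminin chains, the floor was 2.17-fold lower than the roof at 21 hpf (1.99 to 2.36) and 40.0-fold lower at 28 hpf (32.5 to 49.8). Of 6 chains measured at 21 hpf, 2 were lower, 3 within 2-fold and 1 higher, against 25.5% lower and 32.7% higher over all genes. The higher one was the beta2 chain lamb2, whose 21 thinned floor reads, against 6 in the roof, all lay in floor cell 2. At 21 hpf lama4 stood at 0, 0.307 and 549 CPM in the floor, 2.96-fold lower than in the roof (2.54 to 3.46) and 6.25-fold lower without floor cell 3. The floor cells at 21 hpf held 0, 9.66 and 279 CPM of lamb1a, which was 2.69-fold lower (2.32 to 3.13). For lamb1b and lamc1 the floor and roof differed by less than 2-fold at 21 hpf (1.32- and 1.27-fold lower), and lamb1b was 2.14-fold lower without floor cell 3. Most floor reads of lama4, lamb1b and lamc1 lay in the 4 cells of high endothelial share, while lamb1a also stood at 253 CPM in floor cell 8 and at 157 and 158.5 CPM in floor cells 4 and 5. Without the 4 cells, the floor levels were 14.6 CPM for lama4, 46.8 for lamb1a, 4.29 for lamb1b and 5.00 for lamc1. At 28 hpf all 5 measured laminin chains were lower in the floor, against 35.6% of all measured genes. The alpha chain lama4 had 5 or more reads in 2 of 12 floor cells and was 86.6-fold lower than in the roof (52.3 to 155). Without floor cell 5, 2 floor reads were left and the ratio was 596 (164.5 to 4925). The floor was 28.2-fold lower for lamb1a (21.1 to 38.7; 86.9-fold without floor cell 8) and 27.6-fold lower for lamb1b (18.9 to 41.8; at least 236-fold without floor cell 1). The gamma chain lamc1 had 2 thinned floor reads, a ratio of 130 (35.6 to 1082; at least 79.6-fold without floor cell 12).

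The major type IV collagen protomer is made of 2 alpha1 chains and 1 alpha2 chain. The genes of these chains, col4a1 and col4a2, are direct neighbours with no protein-coding gene between them in RefSeq's GRCz12tu annotation. The alpha1 gene col4a1 (ENSDARG00000055009) stood at 0, 59.1 and 237 CPM in the roof of 21 hpf and at 2.34, 253 and 588.5 CPM in the roof of 28 hpf, 3.66-fold higher (3.14 to 4.28). The alpha2 gene col4a2 (ENSDARG00000104110) went from 0, 5.98 and 89.1 CPM to 27.9, 78.0 and 253.5 CPM, 5.00-fold higher (3.77 to 6.70). The roof cells of the 2 stages overlapped for both genes. Both had 5 or more reads in 9 of 18 roof cells at 21 hpf, where 5 more cells had col4a1 and none had col4a2 without it, and in 10 of 10 at 28 hpf (both in 4 of 17 and 8 of 10 after thinning). Although found together, their levels across the 10 roof cells of 28 hpf had a Pearson r of 0.13 and a Spearman rho of -0.19. Roof cell 10 of 28 hpf held 2.34 CPM of col4a1 and 27.9 CPM of col4a2, the lowest of both.

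In the floor of 21 hpf col4a1 stood at 0, 0 and 53.3 CPM and was 10.8-fold lower than in the roof (7.10 to 17.2), 20.4-fold lower without floor cell 3. Floor col4a2 stood at 0, 0 and 137 CPM, 1.82-fold lower (1.21 to 2.77), 3.72-fold lower without floor cell 16 and 2.68-fold lower without floor cell 3. Both genes were at 0.357 CPM in the other 14 floor cells, those outside the 4 of high endothelial share. At 28 hpf each had 5 or more reads in 1 of 12 floor cells and 5 thinned reads over the group. There col4a1 was 127-fold (54.0 to 391.9; at least 194-fold without floor cell 5) and col4a2 47.3-fold lower than in the roof (19.9 to 147; at least 72.2-fold without floor cell 8). Of the other type IV genes, col4a3 had no read in any cell. The alpha5 gene col4a5 had reads in 2 cells, floor cell 16 of 21 hpf (49.65 CPM) and roof cell 5 of 28 hpf (77.6 CPM), and so was called higher in the floor at 21 hpf and lower at 28 hpf. Reads of col4a4 reached 5 in floor cells 8 and 12 of 28 hpf (18.7 and 1.26 CPM) and in no roof cell. The alpha6 gene col4a6 reached 5 reads in 4 of 18 roof cells at 21 hpf and 3 of 10 at 28 hpf (1 of 17 and 2 of 10 after thinning) and in no floor cell, although floor cell 9 of 21 hpf held 0.511 CPM.

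Nidogens and perlecan bridge the laminin and collagen networks. The nidogen nid1b (ENSDARG00000103129) stood at 7.70, 111 and 582 CPM in the roof and 0, 89.3 and 483 CPM in the floor of 21 hpf, 1.49-fold lower in the floor (1.33 to 1.67). At 28 hpf the roof cells held 29.3, 260.2 and 470 CPM and the floor cells 0, 0 and 27.1 CPM, so the groups did not overlap. The floor was 71.8-fold lower (36.2 to 167). Without floor cell 12, 2 floor reads were left and the ratio was 263 (72.5 to 2182). In contrast, nid2a (ENSDARG00000075707) was higher in the floor of 21 hpf. It had 5 or more reads in 13 of 18 floor cells (0, 53.2 and 331 CPM) and in 6 of 18 roof cells (0, 0.195 and 133 CPM), and its summed level was 2.37-fold higher (1.89 to 2.98), and 1.94-fold without floor cell 18. It kept 65.7 CPM in the floor without the 4 cells of high endothelial share, a 2.03-fold difference. At 28 hpf nid2a was low in both regions, 10.5 CPM in the roof, all in roof cell 7, and 14.2 CPM in the floor, with 5 or more reads in 4 of 12 cells (2 after thinning). Perlecan, hspg2 (ENSDARG00000076564), stood at 0, 92.5 and 467 CPM in the roof and 0, 0 and 226 CPM in the floor of 21 hpf, 3.51-fold lower (2.76 to 4.51) and 7.68-fold lower without floor cell 3. The roof level of hspg2 was 85.9 and 86.0 CPM at the 2 stages, a ratio of 1.00 (0.825 to 1.21), and in the 12 floor cells of 28 hpf it had no read, at least 68.8-fold lower.

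**Figure D5:**
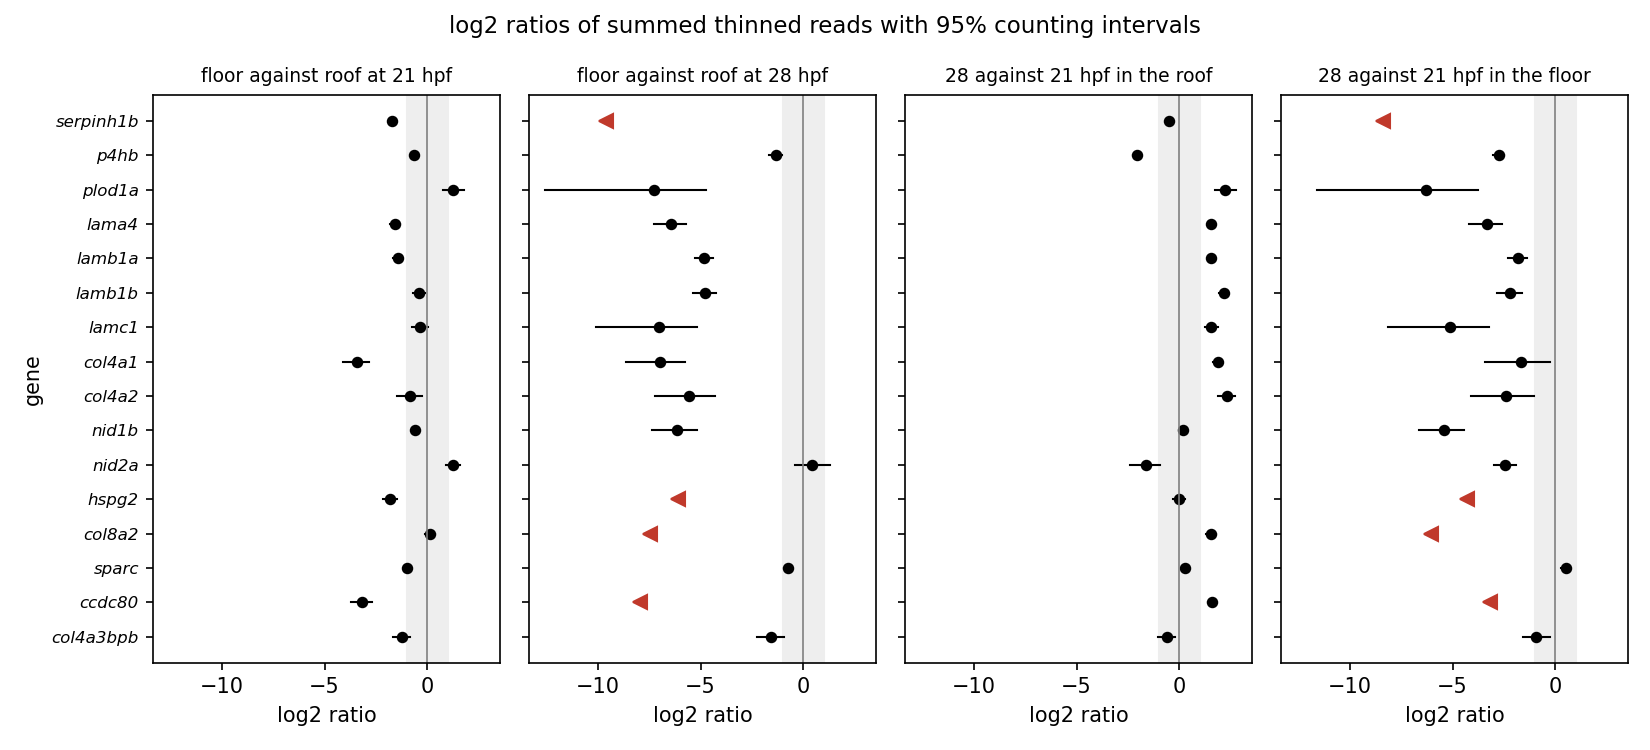
Log2 ratios of the summed thinned reads of the 16 named members in the 4 comparisons (black points with 95% counting intervals; red triangles are bounds where 1 group had 0 reads; the grey band marks differences under 2-fold). Floor to roof ratios at 28 hpf reach bounds of -9.63 for serpinh1b, while sparc (-0.76) and nid2a (0.43) stay within the band.

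The matricellular gene sparc (ENSDARG00000019353), whose product binds collagens and acts on their assembly, was the member that differed least between roof and floor at 28 hpf among those of 50 CPM or more in either group. Its cells stood at 0, 124 and 674 CPM in the roof and 0, 47.3 and 462 CPM in the floor of 21 hpf, and at 35.2, 295 and 495 CPM in the roof and 0, 153 and 438 CPM in the floor of 28 hpf. The groups overlapped at both stages. The floor was 1.96-fold lower at 21 hpf (1.74 to 2.22) and 1.69-fold lower at 28 hpf (1.48 to 1.94). Both values lay near the 2-fold line: at 21 hpf leaving out any of floor cells 2, 3, 5, 16 and 18 or of 8 roof cells gave 2.02- to 2.38-fold, and at 28 hpf leaving out floor cell 1 or 3 gave 2.01- or 2.02-fold. In the floor, sparc was 1.42-fold higher at 28 hpf (1.23 to 1.64), 1.73-fold without floor cell 18, and had 5 or more reads in 10 of 12 cells (9 after thinning). The secreted matrix protein ccdc80 (ENSDARG00000000002) was found in few floor cells. At least 5 reads stood in 11 of the 18 roof and 1 of the 18 floor cells at 21 hpf, and in all 10 roof and 0 of 12 floor cells at 28 hpf (9 of 17, 1 of 18, 10 of 10 and 0 of 12 after thinning). Its roof cells held 0, 37.3 and 426 CPM and then 35.4, 309 and 965 CPM, 3.07-fold higher (2.69 to 3.52). At 21 hpf it was 9.11-fold lower in the floor (6.55 to 12.97). All but 1 of its 40 thinned floor reads lay in floor cell 16, and without that cell the ratio was 344 (61.3 to 13630). At 28 hpf it was at least 249-fold lower in the floor.

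The short-chain collagen col8a2 (ENSDARG00000060893), of a family found beneath endothelia, had like summed levels in roof and floor at 21 hpf. Its median cell was lower in the floor, and at 28 hpf no floor read was left after thinning. Summed, col8a2 held 74.7 CPM in the roof (cells at 0, 47.2 and 384 CPM) and 82.2 CPM in the floor of 21 hpf (0, 3.45 and 475 CPM), a ratio of 1.101 (0.928 to 1.31). Without the 4 floor cells of high endothelial share, 13.9 CPM was left. At 28 hpf the roof cells held 0, 168 and 655 CPM and the floor cells at most 0.230 CPM, with no thinned read, at least 175-fold lower. In the roof it was 2.93-fold higher at 28 hpf (2.51 to 3.44), and 1.55-fold without roof cells 6 to 10. The difference between the 2 stages in this contrast was not tested.

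Fibronectins form the provisional matrix on which early vessels migrate, and zebrafish have 2 genes for them. In the roof, fn1b had 5 or more reads in 7 of 18 cells at 21 hpf and fn1a in 2 of 18, in no cell both, and at 28 hpf fn1a had them in 3 of 10 cells and fn1b in none. After thinning, fn1b was left in 5 and fn1a in 1 of 17 roof cells of 21 hpf, and fn1a in 2 of 10 of 28 hpf. Roof fn1b went from 40.9 CPM (cells at 0, 0 and 239 CPM) to no read, at least 27.2-fold lower (at least 17.9-fold without roof cell 15 of 21 hpf). Roof fn1a stood at 5.00 CPM (0, 0 and 92.7 CPM) and 13 CPM (0, 0 and 55.6 CPM), a 2.60-fold difference (1.36 to 5.11). Without roof cell 2 of 21 hpf 2 reads were left there and the ratio was 20.8 (5.21 to 181), and without roof cell 9 or 4 of 28 hpf it was 1.56 or 1.78. The floor of 28 hpf had the reverse, fn1b in 3 of 12 cells and fn1a in none. The roof cells of the 2 stages overlapped at 0 for both genes.

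Fibrillar collagens, the chains of tensile fibres, were few and patchy. Of 17 rows, 6 were measured at 21 hpf, and of these 4 were lower and 2 higher in the floor. These made up 66.7% and 33.3%, against 25.5% lower and 32.7% higher over all measured genes, so the share higher lay near the background. The following members were below the naming level and were singled out after their values were seen. The alpha1 type I gene col1a1b had 5 or more reads in 7 of 18 roof cells of 21 hpf (cells up to 313 CPM) and in no floor cell, and the type V gene col5a1 in 5 of 18 roof cells (up to 235.0 CPM) and no floor cell. With 1 thinned read each in the floor, their roof to floor ratios of 129 and 111 had counting intervals of 22.8 to 5143 and 19.5 to 4433. Leaving out single cells moved both ratios, and the roof stayed higher. For col1a1b the ratio was 69.75 (12.1 to 2799) without roof cell 16 and at least 40.7 without floor cell 6. For col5a1 it was 55.1 (9.44 to 2221) without roof cell 14 and at least 35.0 without floor cell 3. The other alpha1 gene col1a1a had no read in any of the 58 cells, and col1a2 had 5 or more reads in 4 cells, with 441 CPM in roof cell 2 of 21 hpf. In the other direction stood the type V gene col5a3a and the fibril-associated gene col12a1a. They held 28.3 and 35.6 CPM in the floor of 21 hpf and no read in any roof cell, at least 32.1-fold and 40.3-fold higher (at least 20.7- and 21.0-fold without floor cell 10). Floor cells 1, 2, 7, 9, 10, 13 and 14 had 5 or more reads of col5a3a (7.60 to 204 CPM), with pan-endothelial shares of 0.0857% to 0.359% and erythroid shares of 0.0910% to 3.84%. Those of col12a1a were floor cells 2, 6, 10, 11, 12 and 14 (8.29 to 350.2 CPM). None of the 4 cells of high endothelial share had 5 reads of col5a3a, and 1 of them, floor cell 6, had them of col12a1a.

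Other collagens had 1 or a few cells. In the roof, col18a1a, a basement membrane collagen that is the source of endostatin, had 5 or more reads in 3 of 18 cells at 21 hpf, with 320 CPM in roof cell 12, and no thinned read at 28 hpf. Its paralogue col18a1b had them in 5 of 18 and 4 of 10 roof cells (4 of 17 and 3 of 10 after thinning). Floor cell 18 of 21 hpf held most of the reads of col19a1 (141 CPM; the 1 other cell with reads, floor cell 8 of 28 hpf, had 0.392 CPM) and of col17a1b (224 CPM; up to 17.03 CPM in 3 other cells). The member col28a1a was the 1 member called higher in the floor at 28 hpf than at 21 hpf, and all its reads lay in floor cell 11 of 28 hpf (53.9 CPM).

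Markers of other matrix-rich cells were read beside the members, and their part in the results was not tested. Of 12 sclerotome and mesenchyme genes in the table, pax1a, pax9, twist1a, twist1b and prrx1b had no thinned read in any group. Those with reads in the roof were mainly postnb, at 661 and 632.5 CPM in the roof and floor of 21 hpf and 406 and 37.5 CPM at 28 hpf, and foxc1a, at 97.3 and 33.1 CPM and then 114.5 and 0 CPM. The summed list took 0.0125% to 0.205% of a roof cell and 4.73e-05% to 0.551% of a floor cell at 21 hpf, the highest being floor cell 18, and 0% to 0.136% and 0% to 0.0325% at 28 hpf. Of 7 mural genes, acta2, tagln and abcc9 had no thinned read in any group. The mural genes notch3, myh11a, foxf1 and foxf2a stood at 74.4, 26.8, 22.35 and 16.2 CPM in the roof of 21 hpf. In the floor of that stage they stood at 18.1, 6.94, 2.22 and 0 CPM. At 28 hpf, roof and floor held 66.0 and 0 CPM of notch3, 4.0 and 0 CPM of foxf1, and 0 and 20.4 CPM of myh11a. Of 11 notochord, hypochord and floor plate genes, none had a read at 28 hpf. At 21 hpf, 5 of them had reads in the roof, among them mia (9.12 CPM), tbxta (5.29 CPM) and emilin3a (2.94 CPM), and 2 in the floor. Their summed share was highest in roof cells 2 (0.0160%) and 14 (0.0122%) and floor cell 6 (0.00306%), the 3 cells of that stage with 5 or more reads of col1a2. Roof cells 14 and 2 also had the highest levels of col5a1 (235.0 and 137 CPM). However, roof cells 7 and 16 had 5 or more reads of col5a1 at a notochord share of 0%. The gene col1a1b had 5 or more reads in 7 roof cells of 21 hpf, with roof cell 14 among them and roof cell 2 not. Of these, roof cells 6, 8, 9, 15 and 16 had a notochord share of 0%. Roof cell 1 of 21 hpf, with no read of col1a2, had a summed share of the notochord list of 0.00299%, near that of floor cell 6. Muscle genes took 8.92% of floor cell 6 of 28 hpf.

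The rest of the matrix pathway was covered by 3 lists chosen for their known functions, read against the shares of all genes given above. Of the genes for collagen biogenesis in the endoplasmic reticulum, 27 were measured in each comparison. At 21 hpf, 5 were higher (18.5%, against 32.7% of all genes) and 8 lower in the floor (29.6%, against 25.5%, median log2 ratio -0.37). At 28 hpf, 2 were higher (7.41%, against 34.9%) and 19 lower in the floor (70.4%, against 35.6%, median -2.26). In the roof over time, 4 were higher at 28 hpf (14.8%, against 22.5%) and 9 lower (33.3%, against 35.0%, median -0.65). In the floor over time, 2 were higher (7.41%, against 16.7%) and 23 lower (85.2%, against 42.0%, median -2.28). The shares lower at 21 hpf and in the roof over time lay near those of all genes. The general chaperone hspa5 went from 3545 to 2152 CPM in the roof, 1.65-fold lower (1.59 to 1.71), and calr from 1013 to 247 CPM, 4.1-fold lower (3.73 to 4.51; 6.56-fold without roof cell 7). The collagen export factor mia3 was higher in the floor of 21 hpf, 101 against 29.1 CPM, 3.45-fold (2.76 to 4.36; 2.09-fold without floor cell 9).

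For crosslinking, processing and turnover, 8 of 20 measured genes were higher and 9 lower in the floor at 21 hpf (median 0.45), and 2 of 13 higher and 11 lower at 28 hpf (-3.54). In the roof 8 of 16 were higher and 2 lower at 28 hpf (0.87), and in the floor 3 of 16 were higher and 13 lower (-1.96). The membrane-bound protease mmp14b stood at 451.5 CPM in the roof and 49.2 CPM in the floor of 21 hpf, 9.18-fold lower (7.86 to 10.8; 21.0-fold without floor cell 18). The transglutaminase tgm2b, a crosslinking enzyme, had no thinned read in the roof at either stage and 91.9 and 214 CPM in the floor, at least 104-fold and 143-fold higher. Without floor cell 6 of 28 hpf, the cell with the muscle reads, the latter was at least 75.5-fold.

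Of other matrix glycoproteins and proteoglycans, 12 of 39 measured genes were higher and 18 lower in the floor at 21 hpf (median -0.72), and 4 of 29 higher and 24 lower at 28 hpf (-3.80). In the roof 12 of 35 were higher and 13 lower at 28 hpf (0.22), and in the floor 2 of 34 were higher and 27 lower (-2.40). The proteoglycan esm1, a marker of sprouting endothelium, stood at 390 and 20.8 CPM in the roof and floor of 21 hpf, 18.7-fold lower (14.8 to 23.97; 51.0-fold without floor cell 16), and at 1015 and 0 CPM at 28 hpf, at least 812-fold lower. Fibulin-2, fbln2, was 7.65 CPM in the roof of 21 hpf and 125.0 CPM in the roof of 28 hpf, 16.3-fold higher (10.9 to 25.5; 33.3-fold without roof cell 1 of 21 hpf). The link protein hapln1b was higher in the floor of 21 hpf, 221 against 52.1 CPM, 4.24-fold (3.60 to 5.02).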

How the data were processed

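The authors deposited whole-number counts per gene for 58 single-cell Smart-seq2 libraries (paired-end, 150 bp, per the labels' protocols). Trim Galore, STAR and GRCz11 (danRer11) are named in the submitters' processing notes. Not given in the sources used here are versions, the tool that counted, its annotation and whether it used strand. Without strand, reads of overlapping genes cannot be told apart. Oligo-dT capture and amplification without molecular identifiers mean that intervals and floors cover counting error only.

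Members were matched by the symbol in the count table, so a row without a symbol could not become a member. For the marker and pathway lists, 4701 gene IDs without a symbol were given one from a table of IDs and symbols. Of the 35117 rows, 14082 had no read. Each cell was thinned without replacement to 200000 reads (seed 1), a depth that 1 roof cell of 21 hpf did not reach (129849 counts), and the reads of a group were summed and divided by their total (CPM). A group at 0 was set to 3 reads, and the ratio written as at least. Intervals were exact 95% Poisson and conditional binomial intervals. Lowest, median and highest cells came from unthinned counts. Cell numbers are taken from the titles at 21 hpf and given in accession order at 28 hpf, and only name cells. No cells had identical counts. Gene lengths were not used, so levels of different genes, and the shares of member reads by class, are of reads and not of transcripts. The members and all lists were chosen with earlier results of these data known. Members were named at 50 CPM or more in a group, and, in a share of at least 1 in 3 of that group's cells, 5 or more thinned reads, plus partner chains of the same complex. No test was computed, since embryos are not named and each group counts as 1 sample.

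Alternatives were raw sums, mean levels per cell, another seed, TMM factors, a pseudocount of 1 CPM, minimums of 1 and 50 reads, and leaving out single cells or groups of cells. The calculation of ratios was tested on simulated counts drawn from a shared profile for all cells of a group. Those counts hold no variation between cells beyond counting and depth. Tools were Python 3.11.15 with numpy 2.4.6, pandas 2.3.3, scipy 1.17.1 and matplotlib 3.10.9, and R 4.3.3 with edgeR 4.0.16 for TMM factors alone. Sequences were not used here, and of gene positions only the order of col4a1 and col4a2 in RefSeq's GRCz12tu annotation.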

Additional observations from a re-analysis of the deposited data

Results flagged for a closer look

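In the roof of 28 hpf (10 cells), 6 of 24 values examined had a highest cell that stood far from the others by Dixon's criterion. Chance meets it in about 1 in 20 groups of normally distributed values, a rate that does not hold for genes at 0 in most cells, where any 1 cell with reads meets it. For ccdc80, roof cell 3 held 964.6 CPM and the next cell 381.6 CPM. Roof cell 5 was the highest for both lamc1 (307.5 CPM, next 138.3) and col4a2 (253.5 CPM, next 148.3). For nid2a, roof cell 7 held 120.4 CPM and for col1a2, roof cell 8 held 89.32 CPM, with all other cells at 0. For lama5, roof cell 2 held 20.42 CPM and the next cell 0.707 CPM.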

How the results depend on the processing

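No paired analysis was possible because no number in the labels ties a roof cell to a floor cell and no test was computed. Raw sums moved the median log2 ratio of all genes by 0.22 at 21 hpf and by -0.26 in the floor over time, so directions under that scaling are relative to these shifts. For floor against roof at 21 hpf, the members' own median (-1.05) was -0.67 with another seed and -0.95 from raw sums. From raw sums it was -6.30 at 28 hpf (-3.38), 0.13 in the roof over time (0.54) and -4.95 in the floor over time (-2.38). The values that moved beyond their counting interval or 1.5 times follow. Shares of all genes are given for the main setting alone, so the counts below have no matching background.

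For floor against roof at 21 hpf, 12 of 40 measured members were higher as reported. The count was 7 of 36 without the 4 floor cells of high endothelial share and 5 of 27 with a minimum of 50 reads. The summed log2 ratio (-1.11) was -1.20 from mean cell levels, -0.55 without cells of over 1% erythroid or muscle counts, -2.25 without the 4 cells, and -1.35 to -1.002 leaving out single cells.

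At 28 hpf, 3 of 33 measured members were higher and 27 lower as reported. From raw sums 6 of 41 were higher, and at a minimum of 50 reads 0 of 17 were higher and 14 lower. The summed log2 ratio (-3.82) was -3.66 without the erythroid and muscle cells, -3.41 without floor cells 7 to 12, which share a title part (1 differs in a letter), -3.55 without roof cells 6 to 10, and -4.02 to -3.72 leaving out single cells.

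In the roof over time, 18 of 37 measured members were higher and 11 lower as reported. With 50 reads 9 of 26 were higher, and 5 of 35 were lower without roof cells 2 to 5. The summed log2 ratio (0.31) was 0.56 from raw sums, 0.22 from mean levels, 0.41 with TMM, 0.39 without roof cells 2 to 5, 0.0405 without roof cells 6 to 10 and 0.22 to 0.42 leaving out single cells.

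In the floor over time, 1 of 33 measured members was higher as reported. The count higher was 4 of 43 from raw sums, 2 of 33 from mean levels and 2 of 49 with a minimum of 1 read. It was 0 of 17 with 50 reads, 0 of 31 without the erythroid and muscle cells, and 4 of 21 without the 4 cells. Leaving out single cells gave 0 to 2. The count lower (28 of 33) was 15 of 21 without the 4 cells and 15 of 17 with 50 reads. The summed log2 ratio (-2.40) was -2.27 from raw sums, -2.79 without the erythroid and muscle cells and -1.26 without the 4 cells. It was -1.99 without floor cells 7 to 12 of 28 hpf, and -2.60 to -2.16 leaving out single cells. The cause was not tested for any of these. Leaving out roof cells by their titles, and leaving out col4a3bpa and col4a3bpb, which moved none of these results, were chosen after seeing the data.

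Directions that turned were few. Without the 4 cells, plod1a at 21 hpf was -2.07, and in the floor over time lamb1b was 1.44, col4a1 2.54 and col4a2 2.54. At 28 hpf p4hb was 0.12 without roof cells 6 to 10. Leaving out single cells, col1a2 ran from -4.95 to 0.92 at 21 hpf and from -4.04 to 1.77 in the roof over time, fn1a from -2.50 to 1.42 at 21 hpf, and lama5 from -0.0825 to 2.24 in the roof over time. At 200000 reads per cell, 1 read is 5 CPM of a cell, which limits every gene of low level.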
